A study of Zea mays with 12 samples.

Results

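The developing ligular region of the maize mutant Sdw3 was compared with that of N18 across the genes expressed there. A gene was counted as expressed when its higher value of the 2 genotypes reached at least 1 FPKM (fragments per kilobase of transcript, scaled to the mapped fragments of the library, so a level corrected for gene length and library size). This kept 22635 of the 39514 genes in the table. The Sdw3 group held 3 libraries of the developing ligular region of leaf 8 and leaf 9 at stage V7, and the N18 group held 3 libraries of the same tissue and stage. The labels give Sdw3 and N18 as cultivars and the series title calls Sdw3 a mutant. The affected gene, the allele, its zygosity and whether Sdw3 was bred into N18 are not given in these sources, so differences of genetic background and of the mutation cannot be told apart. The same series holds 3 libraries of each genotype from the developing internode between leaf 7 and leaf 8, used here only to ask where the ligular region differed from it.

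The ligular region is the boundary between the leaf blade and the leaf sheath. It forms the ligule, a thin fringe of tissue, and the auricles, wedges at which the blade hinges outward, and so it sets the angle of the leaf. In maize, liguleless1 (lg1), an SBP-box transcription factor, and liguleless2 (lg2), a bZIP transcription factor, are both needed for this boundary to form. The knotted1-like homeobox (KNOX) genes act in the shoot meristem and are shut off in normal leaf blades, where their misexpression shifts the boundary.

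The table holds 1 FPKM value per gene and genotype, in which the authors combined the 3 libraries, so no value below carries an SD, and the read depth of the libraries is unknown. A gene is called here when the authors' deposited table gives it an adjusted p under 0.05. Among the values of the authors' deposited table, 0.000398 was the smallest adjusted p, shared by 2847 called genes, and it applies to each called gene named below unless another value is given. The labels do not say whether the 3 libraries of a group came from separate plants, so these p-values measure only the spread between the libraries. Fold changes of single genes are plain FPKM ratios, and log2 ratios of Sdw3 over N18 were taken after adding 1 FPKM to both values. The tissue is bulk, so fewer cells of a type and less RNA per cell cannot be told apart in any value below.

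The label was checked against marker genes. Of 8 genes listed for the ligular region, 5 were expressed, 2 called higher and 0 lower, with sums of 61.6 FPKM in Sdw3 and 55.3 FPKM in N18. The same list summed to more in the internode, at 184.2 and 195.1 FPKM in Sdw3 and N18, so as a whole it does not single out the ligular region. liguleless3 (lg3), a KNOX gene, was listed at 0 in Sdw3 and 0.0727 FPKM in N18 ligular regions, against 51.5 and 34.2 FPKM in Sdw3 and N18 internodes, and rld1 and ub2 were also higher in the internodes. lg1 (GRMZM2G036297, chromosome 2, 4265162 to 4268840 in B73 RefGen_v3, the build of all positions here) was listed at 14.96 FPKM in Sdw3 and 14.90 FPKM in N18, against 0.183 and 0.125 FPKM in the Sdw3 and N18 internodes. knotted1 (kn1), the KNOX gene of the shoot meristem, was listed at 0 in both ligular samples and at 179.7 and 171.5 FPKM in the internodes. The 4 markers of meristem and young stem summed to 0.0251 FPKM in Sdw3 and 0 in N18. The 9 markers of green leaf blade were all expressed and summed to 6880 FPKM in Sdw3 and 6005 FPKM in N18, with 3 called higher and 0 lower. The 4 markers of vascular and lignifying cells summed to 44.5 FPKM in Sdw3 and 114.6 FPKM in N18, with 2 called lower and 1 at 0 in both genotypes. Of 6 floral and tassel markers, 2 were expressed, 1 called higher and 1 lower, with sums of 5.401 FPKM in Sdw3 and 5.916 FPKM in N18. Of 2 root markers, the 1 expressed was called lower, at 22.8 FPKM in Sdw3 and 38.8 FPKM in N18.

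Of 22539 expressed genes that the authors tested, 6081 were called, which is 27.0%. The calls were nearly balanced, with 2975 genes higher in Sdw3 (13.2%) and 3106 lower (13.8%). Most changes were modest. The median fold change of a called gene was 1.59, and 85.0% of the expressed genes lay within 1.5-fold on the log2 scale with 1 FPKM added. Calls with at least a 2-fold change numbered 819 higher (3.63%) and 752 lower (3.34%). The median log2 ratio over all expressed genes was -0.0016, and the middle 50% of the genes spanned 0.39 log2 units. Summed over all listed genes, expressed or not, the values came to 826583 FPKM in Sdw3 and 817741 FPKM in N18. The called expressed genes held 33.4% of the Sdw3 sum and 35.4% of the N18 sum. The internode held fewer calls under the same rule, with 2386 of 21070 tested genes (11.3%), of which 1380 were higher in Sdw3 (6.55%) and 1006 lower (4.77%).

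**Figure D1:**
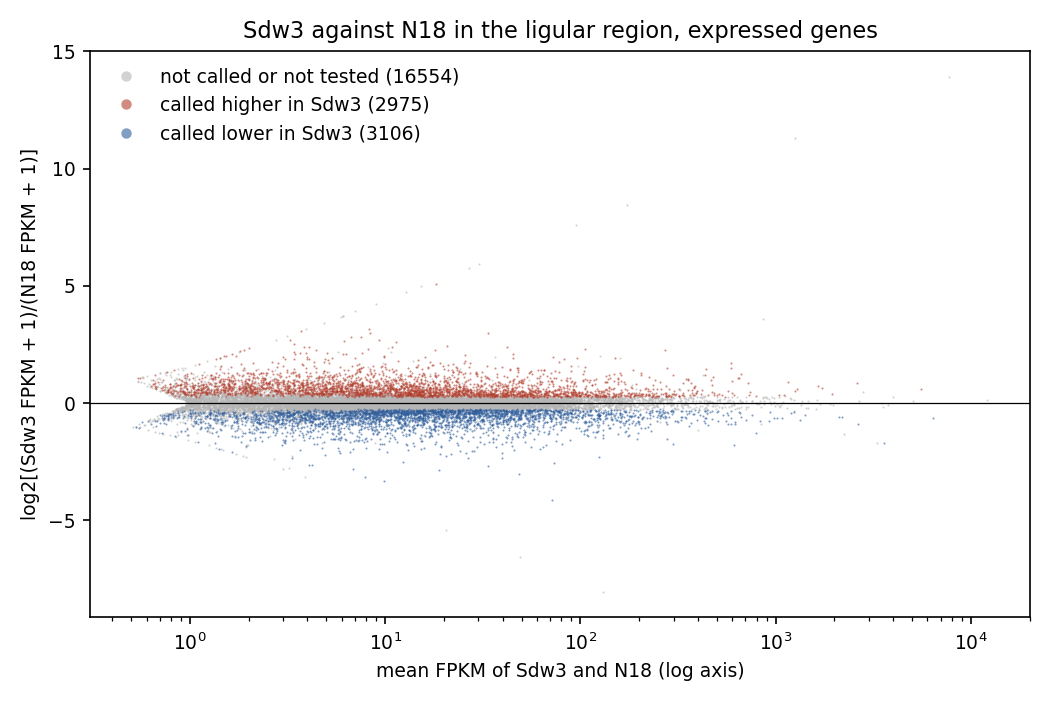
Log2 ratio of Sdw3 over N18 with 1 FPKM added (vertical axis) against the mean FPKM of the 2 genotypes (horizontal axis, log scale) for the 22635 expressed genes of the ligular region, with the 2975 called higher and the 3106 called lower coloured. The cloud is centred on 0; the middle 50% of genes spans 0.55 log2 units at 1 to 3 FPKM, 0.30 at 10 to 30 FPKM and 0.49 at 100 FPKM and above.

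Calls spread over all levels of expression, and among the called genes the fold changes were smaller at high levels. Of genes with a mean of 1 to 3 FPKM, 25.6% of those tested were called, with a median fold change of 2.101 among the called. Between 10 and 30 FPKM the share called was 23.5%, with a median of 1.49-fold. At 100 FPKM and above it was 41.8% of 1429 genes tested, with a median of 1.42-fold. Among the called genes, the share with a change of at least 2-fold was 56.1% at 1 to 3 FPKM and 12.2% at 100 FPKM and above. A call may need a larger fold at low FPKM, so values of called genes cannot show a smaller response among abundant genes. Over all genes, the log2 ratio with 1 FPKM added spanned 0.55 between its lower and upper quartiles at 1 to 3 FPKM. That span was 0.30 at 10 to 30 FPKM and 0.49 at 100 FPKM and above, so it did not fall steadily with level. Higher calls made up 58.8% of the calls at 1 to 3 FPKM, 44.8% at 10 to 30 FPKM and 48.5% at 100 FPKM and above. The 520 genes with a mean under 1 FPKM had to reach 1 FPKM in 1 of the genotypes to be kept, so their 31.2% called and their median of 2.77-fold follow in part from the selection.

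**Figure D2:**
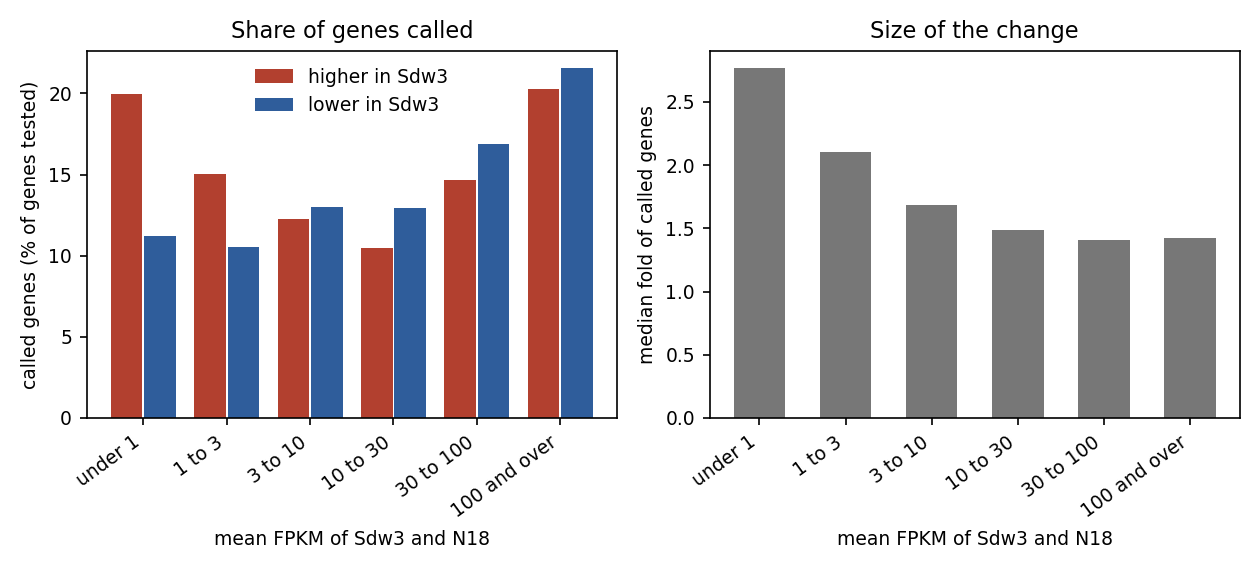
Expressed genes of the ligular region grouped by mean FPKM, with the percent of tested genes called higher or lower in Sdw3 and, beside it, the median fold change of the called genes. The share called is largest at 100 FPKM and above (41.8%), where the median fold change of the called genes is 1.42.

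The threshold of expression itself fell in a region of few calls. The member just inside reached 1.00025 FPKM and the gene just outside 0.999752 FPKM. Of 1022 tested genes whose higher value lay between 1 and 1.5 FPKM, 17.1% were called, and of the 182 tested between 0.5 and 1 FPKM, 10.4% were. A further 96 expressed genes were not tested by the authors, and their median locus length was 369 bases against 3571 bases for all expressed genes. These short loci held some of the largest listed differences: AC233788.2_FG002, with a locus of 151 bases, was listed at 15532 FPKM in Sdw3 and 0 in N18, 1.88% of the Sdw3 sum, without a test. Whole chromosomes differed little, with 25% to 28.9% of tested genes called on chromosomes 1 to 10 and chromosome medians of -0.007 to 0.007. Such totals cannot show a cluster of calls within a chromosome, and regions of chromosomes were not examined.

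To describe the response by function, 1035 expressed genes with a recognisable name were placed in 66 classes, of which 60 held at least 5 expressed genes. Named genes were called more often than the rest, with 738 of 2110 (35.0%), 371 higher (17.6%) and 367 lower (17.4%). Named genes placed in no class gave 279 of 1077 (25.9%). The counts of a class are therefore better read beside 17.6% and 17.4% than beside the shares of all genes. Even these shares are not an independent baseline. The name patterns of the classes were written after names of called genes had been seen, so a high share called may in part follow from that choice. The same limit holds for the counts below of class members whose log2 ratio differed from the internode, since the ligular values enter that difference. A class counts only genes that carry such a name, so large families are covered in part. Of these 60, 6 had a median log2 ratio of 0.25 or more: cell cycle, DNA replication, histones, ribosomal proteins, organ size and benzoxazinoid synthesis. A median of -0.25 or less was found for 12, among them jasmonate synthesis, JAZ and TIFY, ERF factors, auxin response factors, lignin, laccases, cellulases and cellulose synthases.

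**Figure D3:**
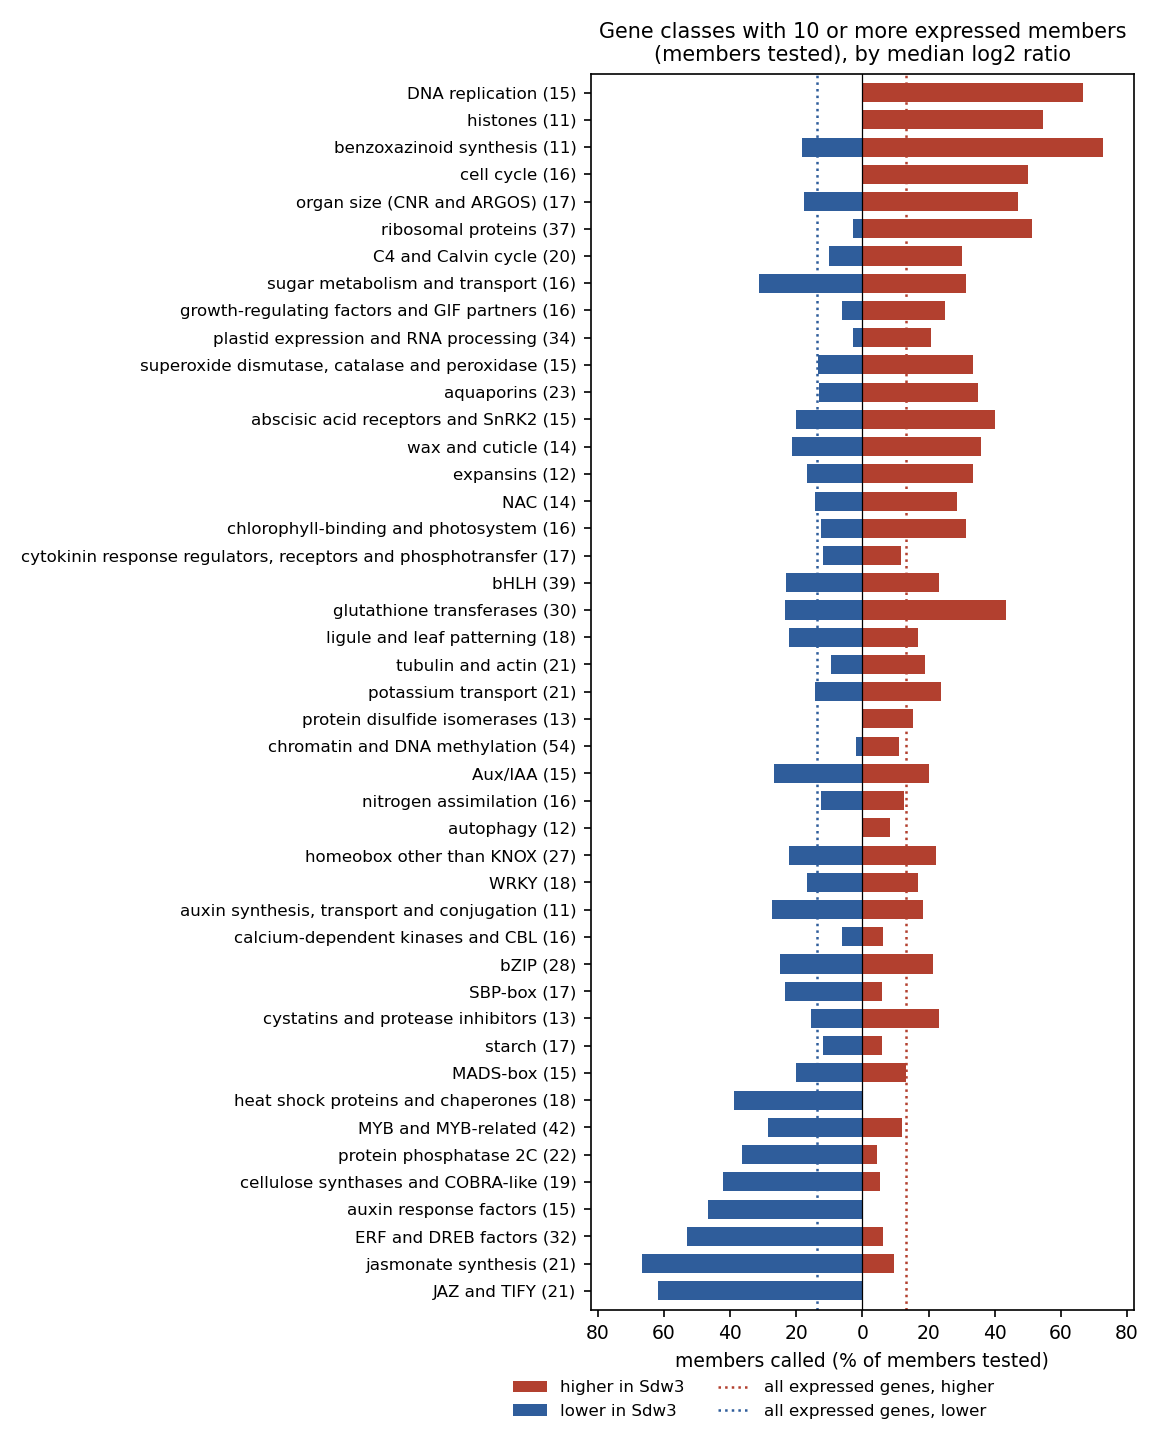
Percent of the tested members of 45 gene classes with at least 10 expressed members called higher in Sdw3 (bars to the right) or lower (bars to the left), ordered by median log2 ratio; the dotted lines give the shares over all expressed genes (13.2% and 13.8%). DNA replication, histones and ribosomal proteins have calls almost only to the right, and the JAZ and TIFY class only to the left. The shares over all named genes, not drawn, were 17.6% higher and 17.4% lower.

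Among 18 expressed genes of ligule and leaf patterning, 3 were higher in Sdw3 and 4 lower, and the class median was 0.05. lg2 (GRMZM2G060216, chromosome 3, 176845303 to 176853978) had 2.95 FPKM in Sdw3 and 0.925 FPKM in N18, 3.18-fold higher in Sdw3. lg1 was not called, and its 14.96 FPKM in Sdw3 and 14.90 FPKM in N18 gave a ratio of 1.004. liguleless narrow (lgn, GRMZM2G134382), a receptor-like kinase needed for a full ligule in maize, had 39.4 FPKM in Sdw3 and 53.9 FPKM in N18 (adjusted p 0.00985 in the authors' deposited table). The KNOX gene knox8 (GRMZM2G135447, chromosome 1, 281887973 to 281894959) had 0.636 FPKM in Sdw3 and 2.78 FPKM in N18, 4.37-fold lower in Sdw3. rough sheath2 (rs2), a MYB factor that keeps KNOX genes off in the leaf, was not called at 58.3 FPKM in Sdw3 and 63.7 FPKM in N18. The KNOX genes knox6 and knox7 were not called, with 14.8 and 8.74 FPKM in Sdw3 and 15.3 and 8.87 FPKM in N18.

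Genes of the upper and lower leaf faces were mixed. YABBY genes, which act in the outgrowth and polarity of the leaf, were called in both directions. yabby15 had 68.5 FPKM in Sdw3 and 47.1 FPKM in N18 (adjusted p 0.000754 in the authors' deposited table). YAB3 had 29.2 FPKM in Sdw3 and 42.1 FPKM in N18. YAB5 had 19.6 FPKM in Sdw3 and 25.6 FPKM in N18 (adjusted p 0.0232 in the authors' deposited table). KANADI genes set the lower face, and of these kan3 had 4.88 FPKM in Sdw3 and 2.95 FPKM in N18 (adjusted p 0.00201 in the authors' deposited table), while kan1 with 16.4 and 13.8 FPKM and milkweed pod1 (mwp1) with 9.10 and 7.90 FPKM in Sdw3 and N18 were not called. rolled leaf1 (rld1), a homeobox gene of the upper face, was not called at 31.1 FPKM in Sdw3 and 29.5 FPKM in N18 and overlaps another listed gene at its locus. Leafbladeless1 (lbl1), which acts in small RNA production for leaf polarity, was not called at 35.9 FPKM in Sdw3 and 31.8 FPKM in N18.

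**Figure D4:**
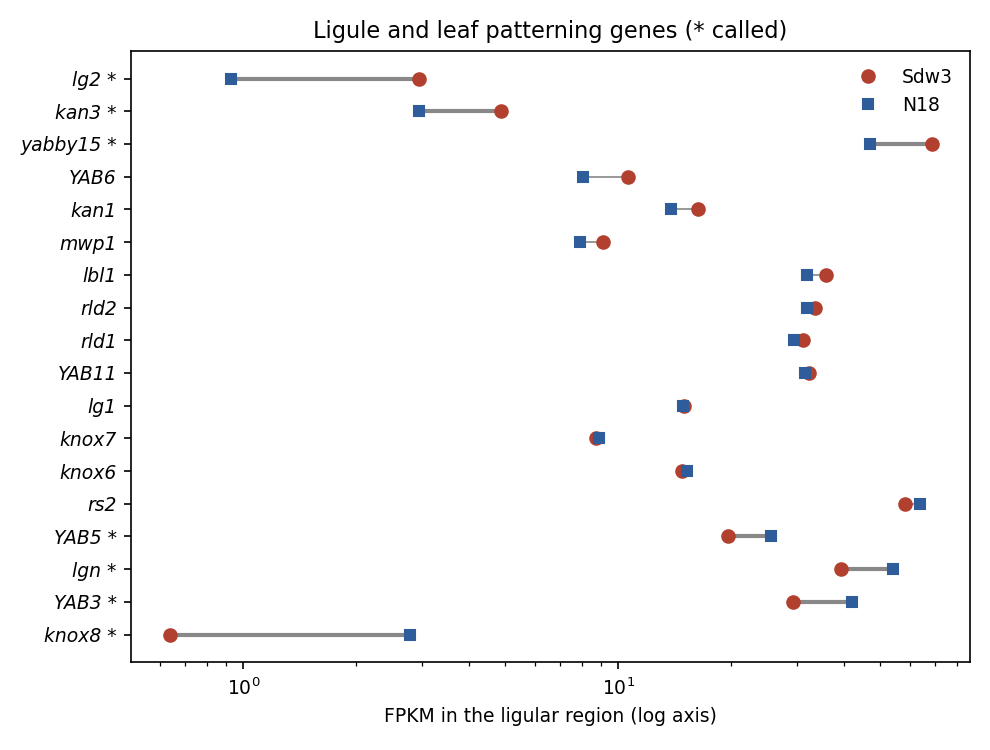
FPKM (log axis) of the 18 expressed genes of ligule and leaf patterning in the ligular region, with Sdw3 as circles and N18 as squares, 1 combined value per genotype, and called genes marked by an asterisk. lg2 is separated from its N18 value by 3.18-fold and knox8 by 4.37-fold, while the symbols of lg1 coincide.

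Regulators of organ size moved more than the patterning genes. Of 17 expressed members of the cell number regulator (CNR) and ARGOS families, 8 were higher in Sdw3 and 3 lower, with a median of 0.30. The ARGOS genes, named in Arabidopsis for a role in organ growth, held the extreme. ZAR1 (GRMZM2G446201, chromosome 10, 119433275 to 119435009) had 15.6 FPKM in Sdw3 and 1.09 FPKM in N18, 14.3-fold higher. ZAR3 had 70.7 FPKM in Sdw3 and 24.3 FPKM in N18. ARGOS4, ARGOS5 and ARGOS9 were 2.83-, 2.71- and 3.24-fold higher in Sdw3. All 3 had under 20 FPKM in Sdw3, so ZAR3 was the most abundant of the called ARGOS genes. CNR1, which lowers cell number in maize when its dose is raised, had 27.7 FPKM in Sdw3 and 39.98 FPKM in N18. The internode gave 6 higher and 1 lower of 12 tested members, and the log2 ratio differed between the tissues for 0 of 12 with standard errors taken from the deposited p-values. With standard errors from the deposited test statistic it differed for 2 of 12, ARGOS4 (-1.69) and ZAR1 (-2.26), both with a lower log2 ratio in the ligular region.

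Growth-regulating factors (GRF), which promote cell proliferation in young leaves, and their GIF partners gave 4 higher and 1 lower of 16, with a median of 0.16. The genes named atGRF5 and atGRF2 (GRMZM2G033612) had 3.88 and 4.60 FPKM in Sdw3 and 1.53 and 2.19 FPKM in N18. GRF1 was lower, with 16.3 FPKM in Sdw3 and 25.4 FPKM in N18. In the internode the same family gave 0 higher and 12 lower of 17 tested, with a median of -0.46. The test of the difference between tissues gave 8 of 16 GRF and GIF genes with a higher log2 ratio in the ligular region and 0 with a lower one. Over 20070 genes tested in both tissues that difference was called for 3124 (15.6%), with 1522 (7.58%) higher and 1602 (7.98%) lower in the ligular region. The share was not computed over named genes alone, so the classes lack a closer baseline for this difference.

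SBP-box factors, the family of lg1, gave 1 higher and 4 lower of 17, with a median of -0.09. sbp29 had 8.55 FPKM in Sdw3 and 14.8 FPKM in N18. sbp6 had 6.55 FPKM in Sdw3 and 10.6 FPKM in N18. unbranched2 (ub2) was the member called higher, with 3.37 FPKM in Sdw3 and 1.82 FPKM in N18 (adjusted p 0.00341 in the authors' deposited table). In the internode ub2 was lower, with 24.7 FPKM in Sdw3 and 62.8 FPKM in N18, and the log2 ratio was 2.24 higher in the ligular region. Of 7 expressed TCP factors 2 were called, both higher, and TCP7 had 11.6 FPKM in Sdw3 and 3.48 FPKM in N18.

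Genes of dividing cells were higher in Sdw3. Of 15 DNA replication genes 10 were called higher and 0 lower, with a median log2 ratio of 0.56. The cell cycle class had 8 of 16 members higher and 0 lower, with a median of 0.47, and histones had 6 of 11 higher and 0 lower, with a median of 0.56. The levels were low beside those of the internode. pcna2, the sliding clamp of DNA replication, had 22.3 FPKM in Sdw3 and 9.83 FPKM in N18 ligular regions, and 172 and 156 FPKM in Sdw3 and N18 internodes. The gene named cyclin-A1 had 4.31 FPKM in Sdw3 and 1.69 FPKM in N18, 2.55-fold higher. The median of the cell cycle class was 0.06 when only genes of at least 5 FPKM were kept, so its shift rested on members of low level.

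The members named for the machinery of replication showed the same direction across its steps. orc2, a subunit of the complex that marks origins, had 1.91 FPKM in Sdw3 and 0.738 FPKM in N18. The helicase subunits MCM6 and MCM7 had 4.84 and 4.23 FPKM in Sdw3 and 2.96 and 2.18 FPKM in N18. SLD5, of the GINS complex, had 7.60 FPKM in Sdw3 and 3.04 FPKM in N18. The small subunits of ribonucleotide reductase, which makes the DNA precursors, were higher too: RNRS1 had 20.49 FPKM in Sdw3 and 8.94 FPKM in N18. Restraints on division were among the higher genes. Rbl1, a retinoblastoma-like repressor of the cycle, had 4.77 FPKM in Sdw3 and 2.54 FPKM in N18. SMR4, of a family of inhibitors of cyclin-dependent kinases, had 17.0 FPKM in Sdw3 and 11.5 FPKM in N18 (adjusted p 0.00259 in the authors' deposited table).

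Histone genes carried more RNA than the replication and cell cycle classes, with 2235 FPKM in Sdw3 and 1770 FPKM in N18 over the 11 members. his2b2 had 128 FPKM in Sdw3 and 49.7 FPKM in N18, and his2a1 had 323 FPKM in Sdw3 and 161 FPKM in N18. The most abundant member, his1a, was not called at 566 FPKM in Sdw3 and 679 FPKM in N18. The linker histone gene hon101 had 171 FPKM in Sdw3 and 108 FPKM in N18. Chromatin and DNA methylation genes as a class moved little, with 6 higher and 1 lower of 54 and a median of 0.04. Their higher members included nfd101, a gene of the high-mobility-group type, with 41.6 FPKM in Sdw3 and 16.7 FPKM in N18, and the DNA methyltransferase gene met5, with 8.02 FPKM in Sdw3 and 3.75 FPKM in N18. KIN13, a kinesin, had 2.84 FPKM in Sdw3 and 0.981 FPKM in N18, and the beta-tubulin gene TUB1 had 37.96 FPKM in Sdw3 and 20.9 FPKM in N18.

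The internode did not share this direction. Its medians were -0.14 for DNA replication, -0.06 for the cell cycle and 0.02 for histones, with 0 called higher among 15 replication and 11 histone genes. The difference between tissues was called for 9 of 15 replication genes, 7 of 15 cell cycle genes and 5 of 11 histone genes, each with a higher log2 ratio in the ligular region, and for 0 with a lower one.

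Ribosomal protein genes were higher by a small and even amount. Of 37, 19 were called higher and 1 lower, the median log2 ratio was 0.29, and the middle 50% of members spanned 0.14 log2 units against 0.39 for all expressed genes. Their summed level was 6123 FPKM in Sdw3 and 5037 FPKM in N18. rpl19, of the large subunit, had 147 FPKM in Sdw3 and 108 FPKM in N18, 1.36-fold higher. The exception was rpp2a-4, a protein of the ribosomal stalk, with 107 FPKM in Sdw3 and 159.8 FPKM in N18. Another stalk protein gene, arpp2a, went the other way with 174 FPKM in Sdw3 and 115 FPKM in N18. The difference from the internode was called for 11 of 36 ribosomal genes, all with a higher log2 ratio in the ligular region.

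**Figure D5:**
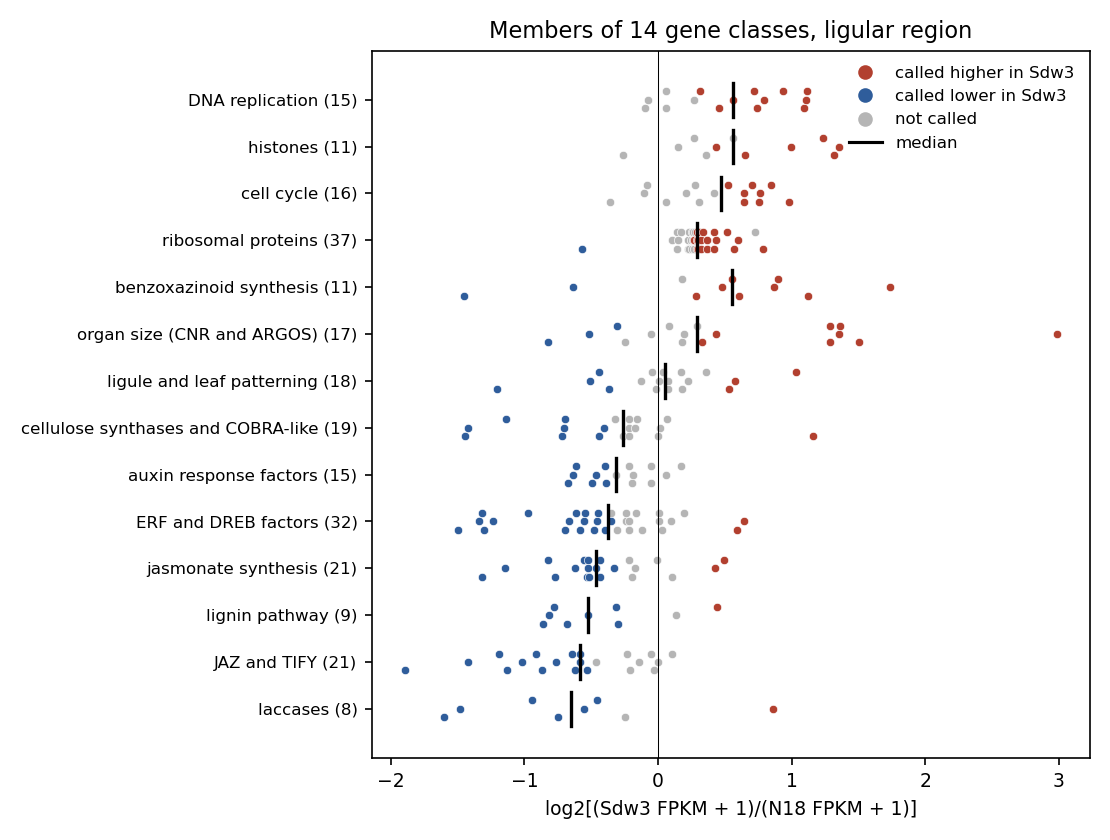
Log2 ratio of Sdw3 over N18, with 1 FPKM added, for each expressed member of 14 gene classes in the ligular region; each point is a gene and the black line is the class median. Ribosomal proteins form a narrow band around 0.29, while the organ size class spreads from -0.83 to 2.99 and the JAZ and TIFY class lies almost wholly below 0.

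Jasmonate genes were lower in Sdw3. Jasmonate is a lipid hormone of wounding and defence that also stops growth, and lipoxygenases, allene oxide synthases and cyclases and OPR reductases lead to it. Of 21 expressed synthesis genes 14 were called lower and 2 higher, with a median of -0.46 and a summed level of 4529 FPKM in Sdw3 and 5495 FPKM in N18. tasselseed1 (ts1), a lipoxygenase needed for sex determination in the maize tassel, had 43.2 FPKM in Sdw3 and 109 FPKM in N18. lox10, the most abundant, had 1159 FPKM in Sdw3 and 1663 FPKM in N18 (adjusted p 0.0109 in the authors' deposited table). aos2, an allene oxide synthase, had 108 FPKM in Sdw3 and 167 FPKM in N18. The 2 members called higher were both reductases: opr5 had 53.8 FPKM in Sdw3 and 37.9 FPKM in N18, and opr6 had 60.6 FPKM in Sdw3 and 44.8 FPKM in N18 (adjusted p 0.00108 in the authors' deposited table).

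The JAZ and TIFY class was mostly lower as well. JAZ proteins are repressors that jasmonate both destroys and induces, which need not hold for other TIFY proteins. The JAZ and other TIFY genes, not separated here, gave 13 lower and 0 higher of 21, with a median of -0.59. Their level summed to 1460 FPKM in Sdw3 and 2290 FPKM in N18. TIFY4, the most abundant, had 411 FPKM in Sdw3 and 699 FPKM in N18. JAZ9 had 1.44 FPKM in Sdw3 and 8.08 FPKM in N18, 5.61-fold lower in Sdw3. MYC2a, named for the bHLH activator that JAZ proteins bind, had 58.7 FPKM in Sdw3 and 85.3 FPKM in N18. In the internode the direction was different, with 9 synthesis genes higher and 1 lower of 20. The difference between tissues was called for 12 of 20 synthesis genes with a lower log2 ratio in the ligular region and 1 with a higher one, and for 6 of 14 TIFY genes, all with a lower one.

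Ethylene genes and ERF factors were mostly lower. The 3 expressed genes of ethylene synthesis were all called lower. acs7, an ACC synthase of the committed step, had 12.002 FPKM in Sdw3 and 31.1 FPKM in N18. ACO, an ACC oxidase, had 10.9 FPKM in Sdw3 and 24.2 FPKM in N18. The receptor gene etr2 was higher, with 19.4 FPKM in Sdw3 and 15.3 FPKM in N18 (adjusted p 0.0134 in the authors' deposited table). ERF and DREB factors, which carry the AP2 domain and answer ethylene and stress, gave 17 lower and 2 higher of 32, with a median of -0.38. EREB92, the most abundant of those called, had 275 FPKM in Sdw3 and 412 FPKM in N18. DBP4 had 12.5 FPKM in Sdw3 and 37.0 FPKM in N18. glossy15 (gl15), an AP2 factor that keeps the juvenile leaf identity in maize, was higher, with 2.58 FPKM in Sdw3 and 1.29 FPKM in N18. The difference from the internode was called for 9 of 25 ERF and DREB genes, all with a lower log2 ratio in the ligular region.

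Auxin genes were mixed apart from the response factors. Auxin response factors (ARF), which bind the promoters of auxin-regulated genes, gave 7 lower and 0 higher of 15, with a median of -0.31. ARF17 had 34.7 FPKM in Sdw3 and 55.9 FPKM in N18, and ARF2 had 15.6 FPKM in Sdw3 and 24.4 FPKM in N18. Aux/IAA repressors gave 3 higher and 4 lower of 15. AUX10 had 6.52 FPKM in Sdw3 and 2.63 FPKM in N18, while AUX34 had 91.5 FPKM in Sdw3 and 132 FPKM in N18. Yucca7, of a family of flavin monooxygenases that make auxin, had 7.02 FPKM in Sdw3 and 1.81 FPKM in N18, and its relative Yucca6 had 19.7 FPKM in Sdw3 and 27.5 FPKM in N18 (adjusted p 0.00108 in the authors' deposited table). PIN8, an auxin carrier, had 3.49 FPKM in Sdw3 and 6.98 FPKM in N18. brachytic2 (br2), whose loss shortens the maize stalk through auxin transport, was not called at 260 FPKM in Sdw3 and 215 FPKM in N18. The difference between tissues was called for 1 of 15 ARF genes, with a lower log2 ratio in the ligular region. With standard errors from the deposited test statistic it was called for 3 with a lower and 1 with a higher one.

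Of 7 cytokinin oxidases, which break cytokinin down, 3 were lower and 0 higher. CKX4b had 3.95 FPKM in Sdw3 and 15.4 FPKM in N18, 3.90-fold lower in Sdw3. Response regulators and receptors gave 2 higher and 2 lower of 17. Among 8 gibberellin genes, dwarf3, a cytochrome P450 of gibberellin synthesis, had 65.0 FPKM in Sdw3 and 105 FPKM in N18. Dwarf1, an oxidase of the last step, had 1.53 FPKM in Sdw3 and 0.557 FPKM in N18 (adjusted p 0.0199 in the authors' deposited table). The DELLA genes D8 and d9, repressors of gibberellin responses whose dominant alleles dwarf maize, were not called, with 201 and 70.3 FPKM in Sdw3 and 204 and 74.3 FPKM in N18. anther ear1 (an1), of an early gibberellin step, was not called at 74.5 FPKM in Sdw3 and 55.3 FPKM in N18. The brassinosteroid gene Dwf4, a steroid hydroxylase, had 7.62 FPKM in Sdw3 and 4.35 FPKM in N18.

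Abscisic acid components split by role. Receptors of the PYL family and SnRK2 kinases gave 6 higher and 3 lower of 15. The 6 higher were 5 PYL genes and CAPIP1, and the 3 lower were SnRK2 kinases. PYL7 had 32.2 FPKM in Sdw3 and 12.1 FPKM in N18, and PYL5 had 5.38 FPKM in Sdw3 and 1.54 FPKM in N18. SnRK2.1 had 15.8 FPKM in Sdw3 and 28.6 FPKM in N18. The protein phosphatases 2C, of which some members restrain this pathway, gave 8 lower and 1 higher of 22, with a median of -0.22. PP2C13 had 1.65 FPKM in Sdw3 and 9.91 FPKM in N18, 5.995-fold lower in Sdw3, and PP2C2, among the most abundant of those called, had 27.5 FPKM in Sdw3 and 41.0 FPKM in N18. D14a, named for the strigolactone receptor family, had 294 FPKM in Sdw3 and 174 FPKM in N18. PSK4, a precursor of the growth peptide phytosulfokine, had 11.6 FPKM in Sdw3 and 3.46 FPKM in N18.

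Genes of lignin and of the secondary wall were lower in Sdw3. Of 9 lignin pathway genes 7 were called lower and 1 higher, with a median of -0.53. PAL1, at the entry of the phenylpropanoid pathway, had 681 FPKM in Sdw3 and 1168 FPKM in N18. BM1, the brown midrib1 alcohol dehydrogenase, had 102 FPKM in Sdw3 and 164 FPKM in N18. The exception, the reductase gene ccr2, had 3.71 FPKM in Sdw3 and 2.47 FPKM in N18 (adjusted p 0.0401 in the authors' deposited table). Laccases, which polymerise lignin in the wall, gave 6 lower and 1 higher of 8. Lac1 had 7.12 FPKM in Sdw3 and 23.6 FPKM in N18, while the separate gene named LAC1 (GRMZM5G842071) had 19.999 FPKM in Sdw3 and 10.6 FPKM in N18. The markers of vascular and lignifying cells were lower beside these genes, with a sum of 44.5 FPKM in Sdw3 and 114.6 FPKM in N18. Both expressed members of that list belong to the wall genes described here, and the part of such cells in the result was not tested.

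Cellulose synthases and COBRA-like genes gave 8 lower and 1 higher of 19, with a median of -0.26. brittle stalk2 (bk2, GRMZM2G109326), a COBRA-like gene of the secondary wall whose loss makes maize brittle, had 27.0 FPKM in Sdw3 and 75.1 FPKM in N18. CesA12, a cellulose synthase of the secondary wall, had 17.4 FPKM in Sdw3 and 39.4 FPKM in N18. CesA-8, among the more abundant synthases, had 115 FPKM in Sdw3 and 188 FPKM in N18, and CslF6-1, of mixed-linkage glucan synthesis, had 299 FPKM in Sdw3 and 494 FPKM in N18. CSLD1, a synthase-like gene needed for division and expansion of leaf epidermal cells in maize, was the member called higher, with 9.40 FPKM in Sdw3 and 3.65 FPKM in N18. Cellulases and xyloglucan enzymes, which loosen and remodel the wall, gave 6 lower and 2 higher of 9. xth1 had 141 FPKM in Sdw3 and 320.2 FPKM in N18, and Cel3 had 18.4 FPKM in Sdw3 and 55.7 FPKM in N18.

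Expansins, proteins that loosen the wall for growth, gave 4 higher and 2 lower of 12. The 4 called higher were beta-expansins and the 2 called lower were alpha-expansins. expB8, expB7 and expB5 had 467, 265 and 106 FPKM in Sdw3 and 323, 170.2 and 69.4 FPKM in N18. expA3 had 244 FPKM in Sdw3 and 314 FPKM in N18 (adjusted p 0.00314 in the authors' deposited table). expA4 had 26.3 FPKM in Sdw3 and 35.7 FPKM in N18 (adjusted p 0.00692 in the authors' deposited table). The remaining 6 of the 12 expansins were not called. Against the internode, the log2 ratio in the ligular region was lower for 4 of 8 lignin genes, 3 of 4 laccases and 6 of 16 cellulose synthase and COBRA-like genes, and higher for 0, 0 and 1 of them.

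Photosynthesis genes rose in a few members and stayed uncalled in most. The chlorophyll-binding and photosystem class gave 5 higher and 2 lower of 16, and its sum was 8631 FPKM in both genotypes. lhcb4, an antenna protein of photosystem II, had 21.97 FPKM in Sdw3 and 10.97 FPKM in N18, while the far more abundant lhcb6 had 777 FPKM in Sdw3 and 1196 FPKM in N18. C4 and Calvin cycle genes gave 6 higher and 2 lower of 20, with sums of 3345 FPKM in Sdw3 and 2617 FPKM in N18. The largest changes were in the carbon-concentrating steps of C4 leaves. pep1, the carboxylase of the mesophyll, had 175 FPKM in Sdw3 and 35.1 FPKM in N18, 5.001-fold higher. ME1, named as a malic enzyme, had 73.9 FPKM in Sdw3 and 16.7 FPKM in N18. pdk1, the dikinase that renews the carbon acceptor, had 476 FPKM in Sdw3 and 239.9 FPKM in N18. The kinase gene PPCK2 went the other way, with 32.3 FPKM in Sdw3 and 54.5 FPKM in N18. The blade markers given above were higher in sum beside these genes, but the 3 of 9 called were pep1, ME1 and pdk1 themselves. The other 6, antenna proteins and small subunits of Rubisco, were not called: the rbcS genes had 527 and 465 FPKM in Sdw3 and 478 and 431 FPKM in N18. The part of blade tissue in the result was not tested.

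Genes of plastid expression gave 7 higher and 1 lower of 34, with a median of 0.16. The sigma factors sig2A and sig3, which direct the plastid RNA polymerase, had 16.3 and 8.81 FPKM in Sdw3 and 10.7 and 5.39 FPKM in N18. rnc1, of plastid intron splicing in maize, had 18.2 FPKM in Sdw3 and 12.6 FPKM in N18. Against the internode, where 0 of 33 were called, 6 of 33 had a higher log2 ratio in the ligular region and 0 a lower one.

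Defence chemistry moved in more than 1 direction. Benzoxazinoids are toxic indole-derived compounds of young grasses, and of 11 expressed genes of their synthesis and release 8 were higher and 2 lower, with a median of 0.56. bx1 (GRMZM2G085381), which makes the indole, had 4.59 FPKM in Sdw3 and 0.679 FPKM in N18, 6.76-fold higher. bx2 had 29.5 FPKM in Sdw3 and 13.0 FPKM in N18. glu1, the beta-glucosidase that frees the toxin, had 1509 FPKM in Sdw3 and 810.4 FPKM in N18 (adjusted p 0.000754 in the authors' deposited table). bx6, a dioxygenase of a later step, was lower with 213 FPKM in Sdw3 and 332 FPKM in N18. Igl, which makes free indole apart from bx1, had 12.6 FPKM in Sdw3 and 36.1 FPKM in N18. wip1, a wound-induced protease inhibitor, had 939.6 FPKM in Sdw3 and 396 FPKM in N18. Chitinases, glucanases and pathogenesis-related proteins gave 2 higher and 2 lower of 8, with a median of 0.00. The chitinase gene chiI had 482 FPKM in Sdw3 and 233 FPKM in N18. chiB was lower, with 14.8 FPKM in Sdw3 and 19.1 FPKM in N18 (adjusted p 0.0318 in the authors' deposited table). Terpene synthases gave 2 higher and 3 lower of 5, and tps10, which makes herbivore-induced sesquiterpenes in maize, had 3.51 FPKM in Sdw3 and 10.9 FPKM in N18.

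Glutathione transferases, detoxifying enzymes that attach glutathione, were among the most responsive large classes, with 13 higher and 7 lower of 30 and a median of only 0.07. gst11 had 225 FPKM in Sdw3 and 96.4 FPKM in N18, and gst13 had 27.1 FPKM in Sdw3 and 8.02 FPKM in N18. gst2 had 3.83 FPKM in Sdw3 and 9.14 FPKM in N18. gst1, the most abundant, had 1079.6 FPKM in Sdw3 and 1393 FPKM in N18 (adjusted p 0.0197 in the authors' deposited table). The catalase gene cat2 had 30.1 FPKM in Sdw3 and 9.47 FPKM in N18. Heat shock proteins and chaperones gave 7 lower and 0 higher of 18, with a median of -0.17. hsp101, which untangles aggregated proteins, had 48.4 FPKM in Sdw3 and 86.0 FPKM in N18. In the internode 6 of 18 were higher and 0 lower, and the difference between tissues was called for 8 of 18, all with a lower log2 ratio in the ligular region. Flavonoid genes gave 3 lower and 0 higher of 7; the chalcone isomerase gene CHI had 91.5 FPKM in Sdw3 and 153 FPKM in N18.

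Transport and primary metabolism showed calls in both directions. Aquaporins, water channels of the plasma membrane and vacuole, gave 8 higher and 3 lower of 23 tested, with a median of 0.14. TIP4-1 had 216 FPKM in Sdw3 and 117 FPKM in N18, and TIP4-2 had 22.8 FPKM in Sdw3 and 6.64 FPKM in N18. PIP2-1, the most abundant called, had 596 FPKM in Sdw3 and 464 FPKM in N18 (adjusted p 0.0083 in the authors' deposited table). The potassium transporter HAK10 had 5.51 FPKM in Sdw3 and 16.6 FPKM in N18, in a class of 21 with 5 higher and 3 lower. phytase2 and phyS11, of the phytases that release phosphate, had 116 and 70.9 FPKM in Sdw3 and 29.2 and 24.8 FPKM in N18. The phosphate transporter pht1 was lower, with 23.5 FPKM in Sdw3 and 39.3 FPKM in N18. Sugar genes gave 5 higher and 5 lower of 16: the fructokinase frk2 had 1476 FPKM in Sdw3 and 1045 FPKM in N18, and the sucrose synthase sus2 had 16.9 FPKM in Sdw3 and 29.2 FPKM in N18. Of 14 wax and cuticle genes 5 were higher and 3 lower, and fae1, an elongase of long fatty acids, had 64.8 FPKM in Sdw3 and 34.2 FPKM in N18.

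Some classes held few calls, fewer than the 35.0% of named genes. Autophagy gave 1 call of 12 with a median of 0.00, calcium-dependent kinases gave 1 higher and 1 lower of 16, protein disulfide isomerases gave 2 higher of 13, and starch genes gave 1 higher and 2 lower of 17. Large transcription factor families were balanced. bHLH factors gave 9 higher and 9 lower of 39, homeobox factors other than KNOX 6 and 6 of 27, WRKY factors 3 and 3 of 18, and bZIP factors 6 and 7 of 28. MYB and MYB-related factors leaned to lower calls, with 5 higher and 12 lower of 42 and a median of -0.18.

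Single factors within these families changed widely. bHLH116 (GRMZM2G042895, chromosome 10, 76600001 to 76602213) had 20.52 FPKM in Sdw3 and 126 FPKM in N18, 6.14-fold lower in Sdw3. bHLH108 had 8.21 FPKM in Sdw3 and 44.999 FPKM in N18. In the other direction, bHLH35 had 7.05 FPKM in Sdw3 and 0.826 FPKM in N18, 8.54-fold higher. The MADS-box gene m28 had 10.2 FPKM in Sdw3 and 45.3 FPKM in N18, and WRKY53 had 3.29 FPKM in Sdw3 and 17.1 FPKM in N18. NAC40 had 8.32 FPKM in Sdw3 and 1.54 FPKM in N18. A size of change alone did not give a call: WRKY104 was listed at 0.0908 FPKM in Sdw3 and 6.33 FPKM in N18 and was not called.

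Further members of these families are given by role. bZIP9, the most abundant bZIP gene called lower, had 67.3 FPKM in Sdw3 and 117 FPKM in N18, and OBF1, the most abundant called higher, had 242 FPKM in Sdw3 and 163 FPKM in N18. HB34, a homeobox gene, had 63.2 FPKM in Sdw3 and 91.2 FPKM in N18. The epidermal homeobox gene ocl3 had 25.6 FPKM in Sdw3 and 35.0 FPKM in N18. NAC1 and NAC95 were 2.25- and 2.32-fold higher in Sdw3, and ANAC010 was 1.59-fold lower. MYBR87 had 5.58 FPKM in Sdw3 and 16.1 FPKM in N18. Of 9 heat shock factors, Hsf03 had 6.57 FPKM in Sdw3 and 13.8 FPKM in N18, and HSF2 had 2.13 FPKM in Sdw3 and 0.559 FPKM in N18 (adjusted p 0.000754 in the authors' deposited table).

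Annexins, dehydrins and nitrogen genes formed smaller classes. Of 7 annexins, proteins that bind calcium and membranes, Ann9 had 20.9 FPKM in Sdw3 and 38.9 FPKM in N18, while Ann7 had 128 FPKM in Sdw3 and 88.2 FPKM in N18. Both called genes among 4 LEA and dehydrin genes, which accumulate in drying tissue, were lower: dhn1 had 13.7 FPKM in Sdw3 and 26.9 FPKM in N18. Nitrogen assimilation gave 2 higher and 2 lower of 16 tested. asn3, an asparagine synthetase and its largest increase, had 6.83 FPKM in Sdw3 and 1.14 FPKM in N18. The gene named NAR had 45.8 FPKM in Sdw3 and 68.6 FPKM in N18, and the glutamine synthetase gene gln3, which shares its locus with another gene, had 39.1 FPKM in Sdw3 and 22.6 FPKM in N18. The cystatin gene cc5, of a family of protease inhibitors, had 149 FPKM in Sdw3 and 216 FPKM in N18, against cpi2 with 180.0 FPKM in Sdw3 and 116 FPKM in N18. In the tubulin and actin class, with 4 higher and 2 lower of 21, tua5 had 163 FPKM in Sdw3 and 106 FPKM in N18, and Actin-7 had 71.4 FPKM in Sdw3 and 98.7 FPKM in N18.

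Outside the classes, the largest named increases were those of AAE (GRMZM2G074759), with 6.50 FPKM in Sdw3 and 0.293 FPKM in N18, and of Natterin-4 (GRMZM2G134264), with 71.3 FPKM in Sdw3 and 12.7 FPKM in N18. The thiamine synthesis gene thi1 had 152.7 FPKM in Sdw3 and 39.0 FPKM in N18. The largest decreases included bss1 (GRMZM2G168552, chromosome 8, 156640233 to 156641211), with 41.4 FPKM in Sdw3 and 208.7 FPKM in N18. Called genes without a name went further. GRMZM2G075456 (chromosome 1, 150233525 to 150235768) had 6.77 FPKM in Sdw3 and 136 FPKM in N18. GRMZM2G175989 had 36.3 FPKM in Sdw3 and 0.103 FPKM in N18 (adjusted p 0.0130 in the authors' deposited table).

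Very abundant genes were called as well. RAB15 had 3369 FPKM in Sdw3 and 1840 FPKM in N18. plt1, a phospholipid transfer protein, had 2198 FPKM in Sdw3 and 1674 FPKM in N18 (adjusted p 0.0109 in the authors' deposited table). The proline-rich protein gene prp2 had 1744 FPKM in Sdw3 and 2614 FPKM in N18. kin1 had 1682 FPKM in Sdw3 and 2550 FPKM in N18 (adjusted p 0.00201 in the authors' deposited table).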

How the data were processed

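RNA of the developing ligular region and internode of Sdw3 and N18 was sequenced, with 3 libraries per group. Per the submitters' processing notes, CASAVA 1.8, bcl2fastq, TopHat2 2.1.0 and Cufflinks were used on the B73 RefGen_v3 genome. Neither the annotation nor the strand setting is given in these sources. The authors deposited 1 combined FPKM value per gene and genotype, which was taken as FPKM because Cufflinks is named and the columns have its layout. The authors' deposited table also gives a test statistic, used here as a score, and a p-value and adjusted p for each tested gene. Its log2 column holds spreadsheet error cells and was not used. Fold changes were recomputed.

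No library has a value of its own, so no spread, interval or refit could be computed, and depth is unknown. The planned test on single libraries was replaced by the authors' own. Genes with at least 1 FPKM in either genotype were kept. Log2 ratios used a pseudocount of 1. The adjusted p-values recomputed by Benjamini-Hochberg matched those deposited.

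The ligular log2 ratio minus the internode log2 ratio was tested as a normal deviate over 20070 genes tested in both, with standard errors derived from each deposited p-value and Benjamini-Hochberg adjustment. Since deposited p-values stop at 5e-05, the standard errors of strong changes are too large and this test is approximate. Standard errors from the deposited score gave 3576 calls, against 3124, with 3100 shared.

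Names came from a RefSeq table of assembly Zm-B73-REFERENCE-NAM-5.0: 18839 of the 39514 gene IDs were found there, 517 with several entries, and 2581 carried a name. Its coordinates were not used. Of all 39514 genes, 2215 share a locus with another gene, 1410 of them expressed; 16.9% of those expressed and tested were called, against 27.6% of the rest, and the division of reads between them is not given in these sources. The members, classes and lists were chosen with earlier results of these data known, and the name patterns of the 66 classes were written after names of called genes had been seen. Planned lists not built as separate classes (peroxidases, pectin enzymes, arabinogalactan proteins, cytochromes P450, glucosyltransferases, receptor kinases and chlorophyll synthesis) are not reported as lists, though single genes of these kinds appear in other classes. Genes named were the 15 largest called changes per direction with a name and at least 5 FPKM, the 5 most abundant called per direction, up to 4 called per class and all expressed patterning genes, 263 in all; which of these are printed, and other members and genes without a name, were chosen after their values were seen. Alternatives were an adjusted p under 0.01, a 2-fold minimum, pseudocounts of 0.1 and 5, no minimum or 5 FPKM, removal of shared loci, scaling to the upper quartile and centring on the median. Tables were handled with pandas 2.3.3 and numpy 2.4.6 in Python 3.11.15; tests used scipy 1.17.1 and plots matplotlib 3.10.9.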

Additional observations from a re-analysis of the deposited data

Results flagged for a closer look

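For 58 genes (the largest named changes, the most abundant called genes and the patterning genes), the difference between the ligular and the internode log2 ratio of Sdw3 over N18 was examined. The test gave a value for 37, and 14 differed at an adjusted p under 0.05 by the approximate normal test over all 20070 genes, where 15.6% of genes did. Apart from the patterning genes, the genes were chosen by their ligular values, which also enter the difference. The 14 of 37 therefore cannot be compared with the 15.6% as a result. These 14 are given here as values.

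The ligular log2 ratio was higher than that of the internode for 7 genes. bHLH35 differed by 2.46, with 7.05 FPKM in Sdw3 and 0.826 FPKM in N18 ligular regions, against 10.8 and 6.94 FPKM in Sdw3 and N18 internodes. thi1 differed by 1.89, and its internode values were 1.74 and 1.65 FPKM in Sdw3 and N18. gst13 differed by 1.84, with internode values of 41.1 and 43.6 FPKM in Sdw3 and N18. expB3 differed by 1.88, with 6.19 FPKM in Sdw3 and 1.36 FPKM in N18 ligular regions and 49.2 and 39.98 FPKM in the internodes. TIP4-2 differed by 1.43. Among the patterning genes, yabby15 differed by 0.59, with internode values of 14.4 and 14.9 FPKM in Sdw3 and N18. lbl1, not called in the ligular region itself, differed by 0.46.

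The ligular log2 ratio was lower for the other 7. WRKY53 differed by -2.72, with internode values of 1.43 and 1.13 FPKM in Sdw3 and N18. knox8 differed by -2.12, with 0.636 FPKM in Sdw3 and 2.78 FPKM in N18 ligular regions and 4.52 and 4.54 FPKM in the internodes. Lac1 differed by -1.71, with internode values of 3.57 and 3.63 FPKM in Sdw3 and N18. lox10 differed by -1.12, with 1159 FPKM in Sdw3 and 1663 FPKM in N18 ligular regions and 293 and 193 FPKM in the internodes. prp2 differed by -0.80, lgn by -0.68 and gst1 by -0.49. lgn had 39.4 FPKM in Sdw3 and 53.9 FPKM in N18 ligular regions and 24.9 and 21.2 FPKM in the internodes.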

How the results depend on the processing

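With an adjusted p under 0.05 and at least a 2-fold change, 819 genes were called higher and 752 lower, against 2975 and 3106 without the fold minimum. An adjusted p under 0.01 gave 2110 and 2262, no FPKM minimum 2985 and 3115, a minimum of 5 FPKM 2257 and 2556, and removal of shared loci 2839 and 3005. The share of genes with an absolute log2 ratio of at least 1 was 4.74%, 8.26% with a pseudocount of 0.1 and 1.77% with 5. Of the genes chosen for naming, knox7, which was not called, changed sign, to a value just above 0, when scaled to the upper quartile. The split of calls turned, with 48.9% of calls higher in the main setting and 52.1% with the 2-fold minimum. Scaling to the upper quartile turned the overall median log2 ratio to 0.023, against -0.0016, with 53.4% of genes above 0, against 49.8%. Of 60 class medians, 11 moved by 0.1 or more at 5 FPKM, 5 with a pseudocount of 0.1 and 3 without shared loci; the cell cycle median was 0.06 at 5 FPKM. Of 263 genes chosen for naming, 24 lost their call at an adjusted p under 0.01. No paired analysis was possible because the table holds 1 combined value per genotype, so neither the replicate block nor leaving out each replicate was run.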
